A study of Mus musculus with 24 samples.

Results

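The genes described here are 51 genes of cell division, taken by symbol as the rows of the deposited table whose gene name equals one of them. Of these, 49 had a row among the 17270 genes of the table, and Cdc25c and E2f8 were not analysed here. They fall into 4 groups by the phase of the cell cycle in which they act: 6 genes of G1/S control, 14 of DNA replication, 9 drivers of the G2/M transition and 20 of mitosis. RNA came from mouse brain microvessels (MBMVs), isolated from male C57BL/6J mice of 10 to 12 weeks. Transient middle cerebral artery occlusion (tMCAO) closed the right middle cerebral artery with a filament for 60 min, and in sham surgery the filament was pulled back at once. The 8 groups were sham ipsilateral, sham contralateral, tMCAO ipsilateral and tMCAO contralateral at 24 h, and the same at 7 days, with 3 libraries in each of the groups. All mice, sham included, had surgery and analgesia. A library held the vessels of 3 pooled hemispheres of the same kind, so the spread between libraries is that between pools and not between single animals, and the study left out outlying samples before the values were deposited.

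A cell commits to division in G1, when cyclin D with its kinases and then cyclin E release E2F factors from the retinoblastoma proteins and the genes of DNA synthesis are switched on. After S phase, the factors B-MYB and FOXM1 drive a second wave of genes, among them the mitotic cyclins, the kinase CDK1 and the machinery of spindle and cytokinesis. The inhibitor p21 (Cdkn1a), a target of p53, holds the cycle back. In the adult brain, the endothelial cells, pericytes and astrocytes of the vessel wall rarely divide, whereas after ischemia vessels sprout, glia multiply and leukocytes enter the tissue.

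Each value is a normalized count, that is the reads of a gene divided by a size factor of the library and rounded to a whole number. Totals per library were 15924780 to 18787932 normalized counts, and the estimated reads were 13692148 to 20033304. All 10 endothelial markers examined, Cldn5, Pecam1 and Cdh5 among them, were present in every group, and their summed level was 251991 to 353191 normalized counts in the 12 ipsilateral libraries. Markers of neurons, oligodendrocytes, microglia and choroid plexus were also present in every group, so the preparation was not endothelial cells alone. In such bulk RNA, fewer cells of a type and less RNA per cell cannot be told apart.

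Differences were tested with limma on log2(normalized count + 1) over all 15982 genes with a mean above 5 normalized counts in the 24 libraries, and the Benjamini-Hochberg adjustment covered all of these genes. A gene was called higher or lower at an adjusted p under 0.05 and a change of more than 1.5-fold, which is 0.585 on the log2 scale. Of the genes of the cell cycle, 46 passed this minimum and were tested. Bub1, Ccnb1 and Mybl2 lay under the minimum and are given by their values. Tk1, Aurkb and Ttk passed the minimum only through the ipsilateral libraries 7 days post-stroke, with means of 3.76, 2.57 and 4.1 normalized counts over the 21 other libraries. The tested genes are therefore not a neutral selection for that group. Birc5 passed the minimum only with ipsilateral tMCAO libraries included, those of either time point being enough.

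At 24 h post-stroke, 9 of the 46 tested genes were higher in the ipsilateral hemisphere after tMCAO than after sham surgery and 0 were lower, where 10% of all tested genes were higher and 8.23% lower. They were Gins2, Tyms, Mcm5, Cdt1, Mcm3, Mcm2 and Pcna of DNA replication, the cyclin Ccnd1 and the mitotic kinase Aurkb. At 7 days, 21 of the 46 were higher and 0 lower, where 3.27% of all tested genes were higher and 9.95% lower. The count of 21 was 13 with only the compared groups in the fit and 8 with a minimum mean of 20, which left 28 of the genes to test. These 21 were mainly genes of the later phases: 6 of 7 tested G2/M drivers and 12 of 19 tested mitotic genes, but 3 of 14 genes of DNA replication and 0 of 6 of G1/S control. Gins2 and Aurkb were higher at both time points, 7 genes at 24 h alone, 19 at 7 days alone and 18 at neither. Without overlap between the libraries, 13 genes lay above sham and 0 below at 24 h, where 25% of all tested genes lay above and 24.1% below. At 7 days 29 lay above and 1, Ccnd1, below, where 13.4% and 16.6% of all tested genes did. The median log2 fold change of the 46 genes was 0.32 at 24 h and 0.85 at 7 days, beside -0.02 and 0.03 over all tested genes. With Tk1, Aurkb and Ttk left aside, 8 of the 43 other genes were higher at 24 h and 19 at 7 days.

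**Figure D1:**
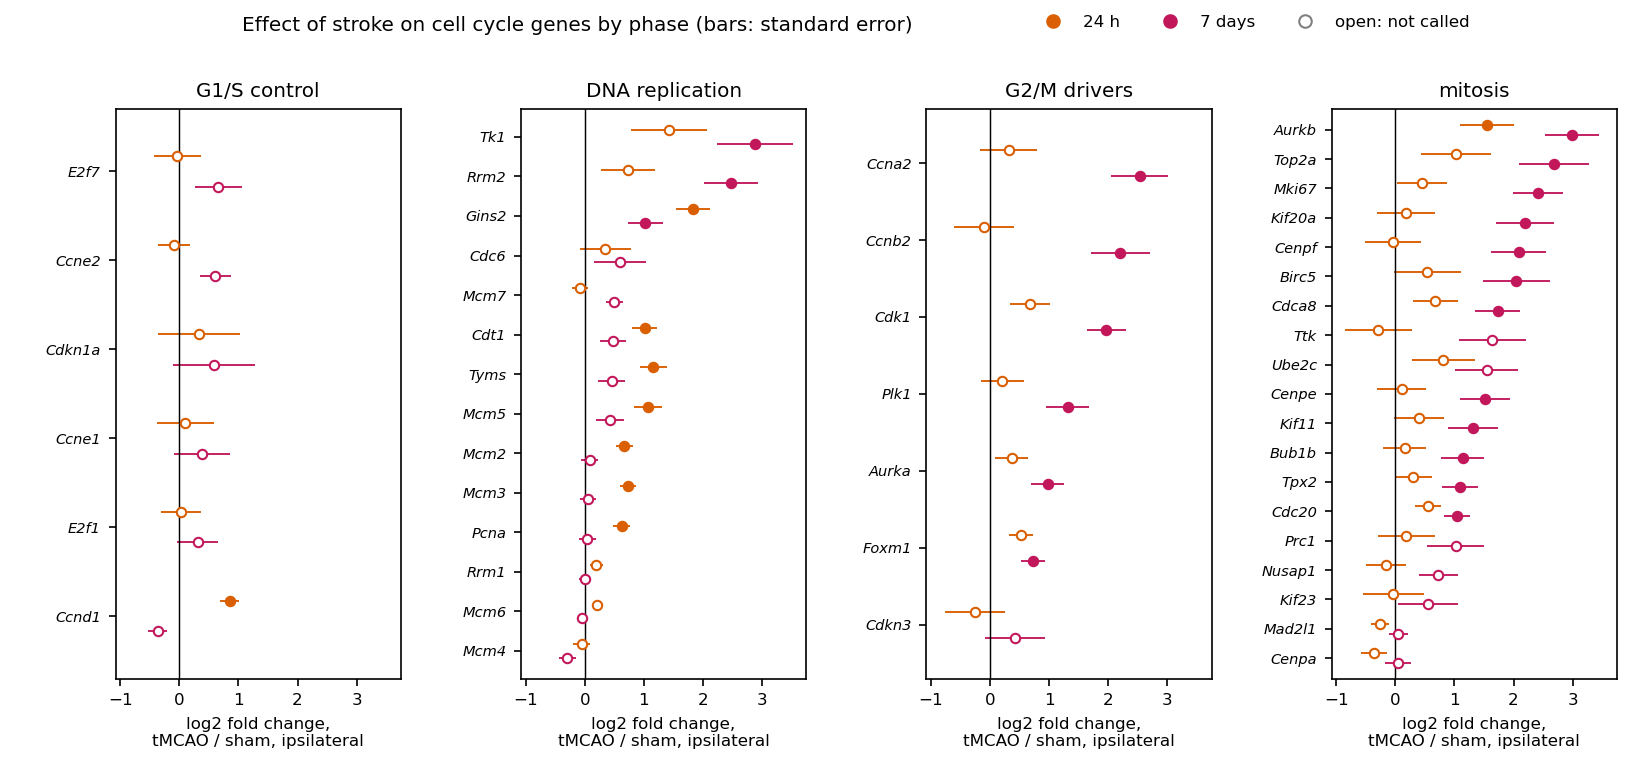
Log2 fold change of the 46 tested genes in the ipsilateral hemisphere, tMCAO over sham, at 24 h (orange) and 7 days (magenta), in 1 panel per phase and with the standard error as bars. Filled points passed the threshold. At 24 h filled points lie mainly among the genes of DNA replication (7 of 14), and at 7 days among the G2/M drivers (6 of 7) and mitotic genes (12 of 19).

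Promoters are shown for genes of different phases, since genes of S phase and of mitosis are known to carry different elements close to their starts. The sequences are the 250 bases upstream of the RefSeq start on GRCm38.p6, written 5′ to 3′ on the strand of the gene, with matches in capitals. Searched on both strands were the cell cycle homology region (CHR, spelled TTTGAA or else spelled TTCGAA), the E2F element (spelled TTGGCGC or otherwise spelled TTCCCGC or otherwise spelled TTGCCGC or otherwise spelled TTCGCGC) and the CCAAT box, and an E2F match that ends in CCAA can overlap a CCAAT box. Mcm5, a subunit of the replicative helicase, was higher at 24 h. Its window is chr8:75109259-75109508 (plus strand). Cdk1 and Plk1, kinases that start mitosis, were higher at 7 days, and their windows are chr10:69352913-69353162 (minus strand) and chr7:122159185-122159434 (plus strand). Ccne1, cyclin E1 of late G1, passed the threshold at neither time point, and its window is chr7:38107491-38107740 (minus strand).
Mcm5: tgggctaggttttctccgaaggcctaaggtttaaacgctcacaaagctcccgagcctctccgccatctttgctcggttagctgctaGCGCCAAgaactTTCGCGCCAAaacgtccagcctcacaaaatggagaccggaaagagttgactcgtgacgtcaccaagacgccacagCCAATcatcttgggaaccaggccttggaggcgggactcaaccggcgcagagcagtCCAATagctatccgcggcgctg
Cdk1: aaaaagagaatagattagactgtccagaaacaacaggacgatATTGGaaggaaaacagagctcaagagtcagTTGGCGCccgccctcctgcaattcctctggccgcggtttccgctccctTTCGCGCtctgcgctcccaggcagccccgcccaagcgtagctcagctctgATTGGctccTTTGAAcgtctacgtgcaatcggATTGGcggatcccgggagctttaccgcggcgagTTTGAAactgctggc
Plk1: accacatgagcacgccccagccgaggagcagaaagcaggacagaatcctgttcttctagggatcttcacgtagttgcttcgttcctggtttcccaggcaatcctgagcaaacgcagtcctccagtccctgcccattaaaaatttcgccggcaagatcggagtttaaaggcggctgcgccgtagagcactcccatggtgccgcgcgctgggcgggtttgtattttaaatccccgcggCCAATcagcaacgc
Ccne1: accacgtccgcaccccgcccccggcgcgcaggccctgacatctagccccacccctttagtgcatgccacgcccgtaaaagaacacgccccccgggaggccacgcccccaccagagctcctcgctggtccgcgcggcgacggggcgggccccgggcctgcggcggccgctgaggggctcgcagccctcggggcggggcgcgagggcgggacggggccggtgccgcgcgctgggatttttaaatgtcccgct

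Counted from the start, the Mcm5 window had E2F matches that begin at bases -164, -152 and -149 and CCAAT boxes at -77 and -22. The Cdk1 window held CHR matches at -71 and -15, E2F matches at -178 and -130 and CCAAT boxes at -208, -80 and -48. In Plk1 a CCAAT box at -14 was the only match, and the Ccne1 window held none of the 3 elements. Of the 49 genes with a row, 40 had an entry in the RefSeq table. A CHR match was present in 42.9% of 7 G2/M drivers and 41.2% of 17 mitotic genes, against 16.7% of 12 genes of DNA replication and 19.6% of all 27025 genes in the table. An E2F match was present in 50% of the genes of DNA replication, 28.6% of the G2/M drivers and 5.9% of the mitotic genes, against 9.0% of all genes. CCAAT boxes were present in 85.7%, 82.4% and 66.7% of G2/M drivers, mitotic genes and genes of DNA replication, against 37.5% of all genes. Grouped by call instead of phase, the genes higher at 24 h alone and those higher at 7 days alone held E2F matches in 1 of 6 (16.7%, the gene being Mcm5) and 3 of 15 (20%), while CHR matches were found in 1 of 6 (16.7%) and 7 of 15 (46.7%). These shares are of few genes and describe letters in a window, not bound sites.

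Among the genes of G1/S control, only Ccnd1 was called against sham, at 24 h. Ccnd1, cyclin D1, which links growth signals to the cycle, measured 1721, 1650 and 1495 normalized counts in the sham ipsilateral libraries at 24 h and 3523, 2619 and 2694 after tMCAO. The groups did not overlap, and the log2 fold change was 0.85 (SE 0.16, adjusted p = 0.000517). At 7 days the order was turned, with 2310, 2541 and 2227 in sham and 1696, 2142 and 1676 after tMCAO. All tMCAO libraries lay below the sham libraries, but the change of -0.37 (SE 0.16, adjusted p = 0.12) missed the threshold. In the contralateral hemisphere Ccnd1 ranged from 1421 to 3115, with 1608 to 1679 after tMCAO at 24 h. Per kilobase of exon, it was the second most abundant of the genes in sham ipsilateral libraries at 24 h, with 344 ± 24.5 normalized counts (SD, n = 3) beside 1101 ± 655 for Cdkn1a and 315 ± 26.7 for Pcna.

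The cyclins E, which act with CDK2 at the entry into S phase, and the E2F factors stayed at low levels. Ccne1 measured 18, 23 and 17 in sham and 17, 32 and 16 after tMCAO at 24 h, and 14, 12 and 14 against 11, 26 and 19 at 7 days, so the groups overlapped both times. E2f1, an activator of S phase genes, measured 21, 27 and 19 against 20, 32 and 18 at 24 h, and 24, 18 and 26 against 27, 28 and 29 at 7 days. For Ccne2 the 7-day libraries were 25, 25 and 21 in sham and 33, 38 and 39 after tMCAO, without overlap but with an adjusted p of 0.131. E2f7, a repressor of the E2F family, had 39, 19 and 48 in sham and 55, 55 and 48 after tMCAO at 7 days (log2 fold change 0.66, SE 0.40, adjusted p = 0.291).

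Cdkn1a, the inhibitor p21, differed more between pools than between surgeries. It measured 3039, 2148 and 6548 normalized counts in sham ipsilateral libraries at 24 h and 5610, 5815 and 2615 after tMCAO, and 2108, 2144 and 10127 against 8431, 2647 and 6886 at 7 days. Neither change passed the threshold (log2 fold change 0.33, SE 0.69, adjusted p = 0.744 at 24 h, and 0.58, SE 0.69, adjusted p = 0.635 at 7 days). The contralateral libraries of the same numbers were alike: 3166, 2267 and 5764 in sham at 24 h, 3635, 7042 and 2146 after tMCAO at 24 h, 2385, 2385 and 10692 in sham at 7 days, and 9296, 3107 and 8268 after tMCAO at 7 days. In each group the library highest on the ipsilateral side was also the highest on the contralateral side.

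**Figure D2:**
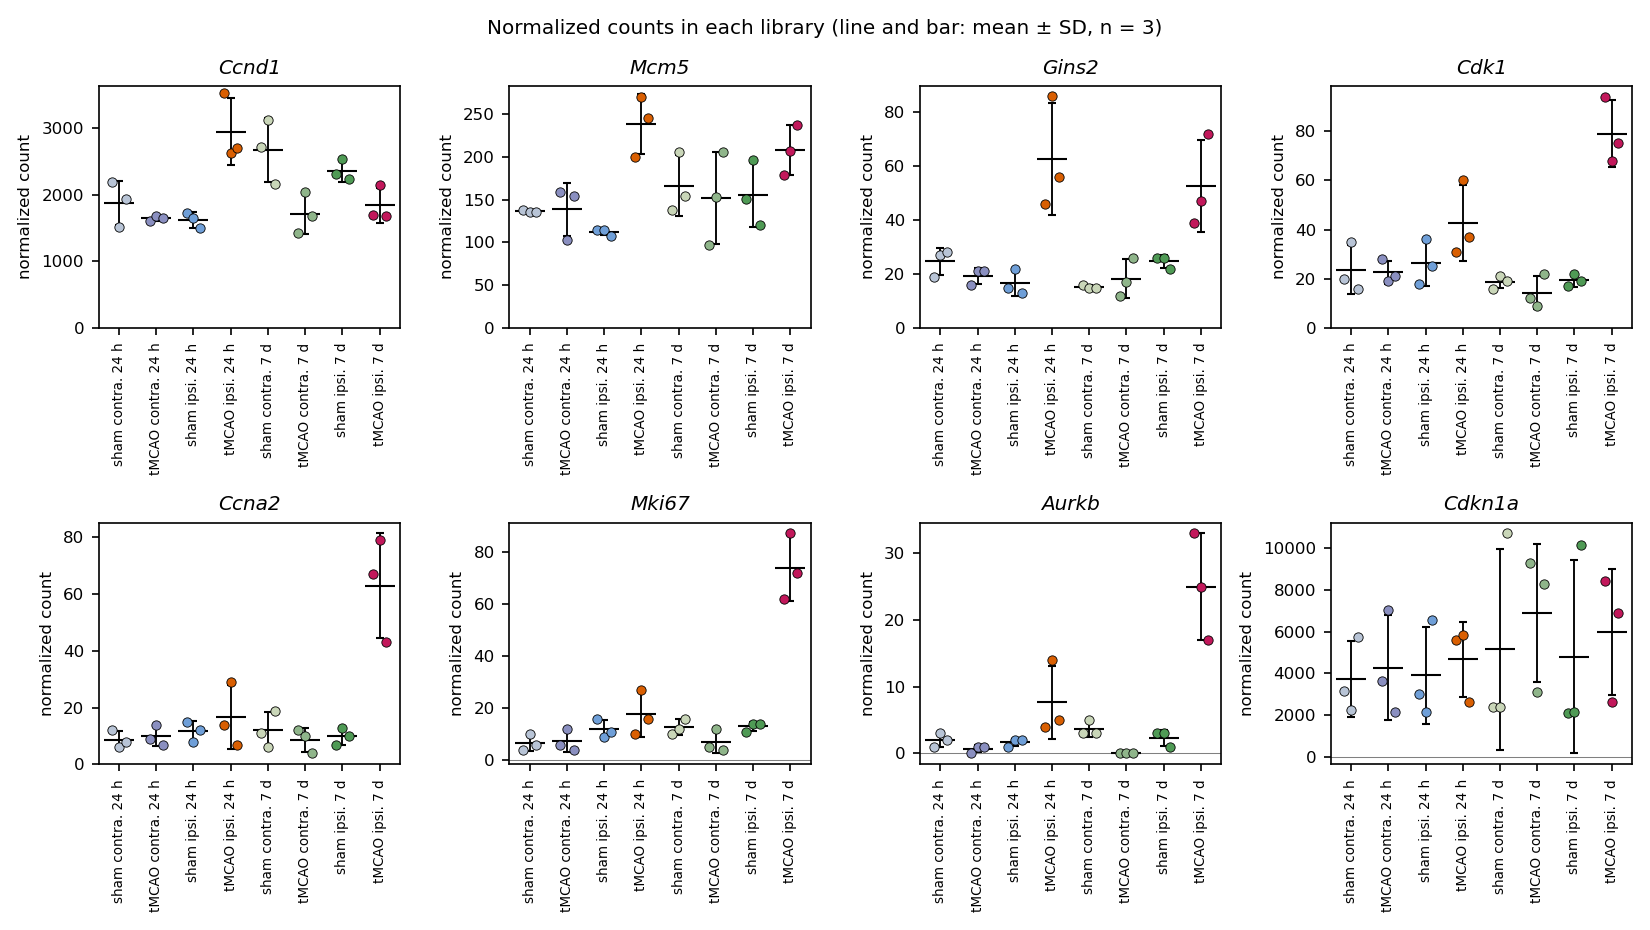
Normalized counts of 8 genes in each of the 24 libraries by group, with points for libraries and lines with bars for mean ± SD (n = 3). The means of Ccnd1 and Mcm5 are highest in the ipsilateral group 24 h after tMCAO, although sham contralateral libraries reach 3115 for Ccnd1, and those of Cdk1, Ccna2, Mki67 and Aurkb in the ipsilateral group 7 days after tMCAO, and Cdkn1a spreads from 2108 to 10692 within sham groups.

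Of the 14 genes of DNA replication, 7 were higher than sham at 24 h and 3 at 7 days. Tested between the time points, 1 of the 14 (Mcm3) had a lower stroke effect at 7 days than at 24 h, and in the tMCAO libraries themselves 0 were lower and 2 higher at 7 days. The 2 were Rrm2 and Tk1, and Tk1 passed the minimum only through the 7-day tMCAO ipsilateral libraries. The helicase subunit Mcm5 measured 114, 114 and 108 in sham and 200, 270 and 245 after tMCAO at 24 h (log2 fold change 1.07, SE 0.23, adjusted p = 0.00209). At 7 days it measured 151, 196 and 120 against 179, 207 and 237, where the groups overlapped (0.43, SE 0.23, adjusted p = 0.229). For Mcm2 the 24 h libraries were 337, 355 and 282 in sham and 498, 541 and 508 after tMCAO (0.67, SE 0.14, adjusted p = 0.00175, and 0.57, under the fold limit, without sham replicate 3), and at 7 days they were 399, 417 and 286 against 412, 379 and 363. Both helicase subunits were thus clear of their sham groups at 24 h and overlapped them at 7 days. Mcm3 rose at 24 h as well (0.74, SE 0.13, adjusted p = 0.000361), whereas Mcm4, Mcm6 and Mcm7 of the same ring did not pass the limits. Mcm4, the member with the lowest change at 7 days, measured 704, 758 and 742 in sham and 696, 772 and 664 after tMCAO at 24 h, and 812, 676 and 962 against 763, 617 and 608 at 7 days. Mcm7 had the lowest change at 24 h (294, 341 and 285 against 312, 287 and 269) and lay without overlap above sham at 7 days (274, 257 and 222 against 325, 322 and 426), a log2 change of 0.50 (SE 0.14, adjusted p = 0.0156) below the 1.5-fold limit.

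Gins2, a subunit of the GINS complex that activates the helicase, showed the greatest rise of the 46 genes at 24 h. Its libraries were at 15, 22 and 13 in sham and 46, 86 and 56 after tMCAO (log2 fold change 1.83, SE 0.30, adjusted p = 0.000155). At 7 days Gins2 measured 26, 26 and 22 against 39, 47 and 72 (1.02, SE 0.30, adjusted p = 0.0208), again without overlap, but the call was lost with only the compared groups in the fit (adjusted p = 0.0652) and without sham replicate 3 (0.0688) or tMCAO replicate 3 (0.112). Tyms, the thymidylate synthase, went from 81, 83 and 71 in sham to 183, 178 and 167 at 24 h (1.16, SE 0.23, adjusted p = 0.0008), and Pcna, the sliding clamp of the DNA polymerases, from 690, 762 and 818 to 1215, 1222 and 1061 (0.62, SE 0.14, adjusted p = 0.0028). At 7 days, Tyms measured 100, 123 and 76 in sham and 134, 144 and 126 after tMCAO, and Pcna 801, 719 and 1011 against 1028, 881 and 707. The 24 h change of Pcna lay near the fold limit and was 0.56 without sham replicate 1 and 0.56 with median centring. Cdt1, which loads the helicase, was also higher at 24 h (1.01, SE 0.22, adjusted p = 0.0019).

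A pair of enzymes of nucleotide supply, Rrm2 and Tk1, were called at 7 days and not at 24 h. Rrm2, the cell cycle regulated subunit of ribonucleotide reductase, measured 12, 7 and 11 in sham and 11, 36 and 12 after tMCAO at 24 h, and 5, 12 and 11 against 48, 58 and 55 at 7 days (log2 fold change 2.48, SE 0.45, adjusted p = 0.000635). Tk1, the thymidine kinase of S phase, measured 2, 1 and 3 against 4, 22 and 3 at 24 h and 2, 9 and 3 against 44, 29 and 35 at 7 days (2.89, SE 0.64, adjusted p = 0.00353), and it was tested only because these last libraries lifted its mean over the minimum. In both genes only 1 of the 3 tMCAO libraries at 24 h stood out from sham, and all 3 did at 7 days, and without tMCAO replicate 3 Tk1 was called at 24 h as well (adjusted p = 0.0475). Rrm1, the partner of Rrm2, was near its sham level at 7 days (850, 780 and 742 against 830, 757 and 788). Cdc6, another loading factor of the helicase, stayed at 7 to 18 normalized counts in the ipsilateral libraries.

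The G2/M drivers were the group with the greatest share of higher genes at 7 days, 6 of 7 tested, while 0 of 7 were called at 24 h. Ccna2, cyclin A2, measured 15, 8 and 12 in sham and 14, 29 and 7 after tMCAO at 24 h, and 7, 13 and 10 against 67, 79 and 43 at 7 days (log2 fold change 2.53, SE 0.48, adjusted p = 0.000924). Cdk1 measured 18, 36 and 25 against 31, 60 and 37 at 24 h (0.67, SE 0.34, adjusted p = 0.133) and 17, 22 and 19 against 94, 68 and 75 at 7 days (1.97, SE 0.34, adjusted p = 0.000326). Both genes overlapped their sham groups at 24 h and lay far above them at 7 days. Plk1, a polo-like kinase of mitotic entry, had 11, 9 and 10 against 11, 13 and 11 at 24 h and 9, 9 and 13 against 20, 23 and 42 at 7 days (1.32, SE 0.36, adjusted p = 0.0158). The call of Plk1 was lost with only the compared groups in the fit (adjusted p = 0.0605) and without sham replicate 1 (adjusted p = 0.0554), sham replicate 2 (0.0574) or tMCAO replicate 3 (0.0905). Ccnb2, a cyclin B, rose by 2.21 at 7 days (SE 0.50, adjusted p = 0.00418) and Aurka, a kinase of the spindle poles, by 0.97 (SE 0.28, adjusted p = 0.0205). Cdkn3, a phosphatase that acts on CDK1 and CDK2, was the exception, with 9, 13 and 7 in sham and 10, 18 and 12 after tMCAO at 7 days (0.43, SE 0.51, adjusted p = 0.637).

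Foxm1, the transcription factor of the mitotic genes, was intermediate. At 24 h it measured 27, 32 and 37 in sham and 52, 46 and 41 after tMCAO, without overlap but short of the threshold (0.53, SE 0.20, adjusted p = 0.0566), and at 7 days 30, 40 and 42 against 56, 66 and 64 (0.73, SE 0.20, adjusted p = 0.0172). The call of Foxm1 was lost with only the compared groups in the fit (adjusted p = 0.0939) and without sham replicate 1 (adjusted p = 0.094) or tMCAO replicate 2 (0.0534). Ccnb1, cyclin B1, and Mybl2, which encodes B-MYB, lay under the minimum and were not tested in the main fits. Ccnb1 measured 2, 1 and 3 in sham and 5, 7 and 4 after tMCAO at 24 h, and 3, 0 and 1 against 12, 15 and 4 at 7 days. Mybl2 measured 2, 4 and 0 against 4, 5 and 5 at 24 h and 11, 1 and 3 against 5, 8 and 12 at 7 days. For Ccnb1 the tMCAO libraries were above sham both times, and for Mybl2 they overlapped sham at 7 days.

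Of the 21 genes called at 7 days, 12 were mitotic. Mki67, the proliferation marker Ki-67, measured 16, 9 and 11 in sham and 10, 27 and 16 after tMCAO at 24 h, and 11, 14 and 14 against 62, 87 and 72 at 7 days, which is 5.31-fold on the scale with 1 added (log2 fold change 2.41, SE 0.42, adjusted p = 0.00041). Top2a, the topoisomerase that untangles sister chromatids, measured 15, 25 and 44 against 36, 84 and 50 at 24 h and 19, 10 and 24 against 131, 112 and 98 at 7 days (2.69, SE 0.59, adjusted p = 0.00315). Against sham, neither was called at 24 h, where their groups overlapped, and at 7 days the groups were far apart. Mki67 was called higher at 24 h against the contralateral hemisphere, as given below.

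Aurkb and Birc5 belong to the chromosomal passenger complex, which controls chromosome attachment and cytokinesis. Aurkb measured 1, 2 and 2 in sham and 4, 14 and 5 after tMCAO at 24 h (log2 fold change 1.55, SE 0.46, adjusted p = 0.0163) and 3, 3 and 1 against 33, 25 and 17 at 7 days (2.99, SE 0.46, adjusted p = 0.000136). This was the highest value of the 46 genes, but Aurkb passed the minimum only through these 7-day libraries, so its place and its p are no more than a description. At 24 h this call rested on few reads and on single libraries: without tMCAO replicate 2 the adjusted p was 0.114, without sham replicate 1 it was 0.0724, and with only the compared groups in the fit it was 0.0678. Birc5, survivin, measured 7, 9 and 2 against 4, 20 and 6 at 24 h and 8, 8 and 5 against 37, 35 and 24 at 7 days (2.05, SE 0.57, adjusted p = 0.0165). Cdca8, the complex's borealin, was higher at 7 days as well (1.73, SE 0.38, adjusted p = 0.00325). The call of Birc5 was lost without sham replicate 3 at 7 days (adjusted p = 0.0628) and without tMCAO replicate 1 (0.0649).

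Among the motors and kinetochore genes, Kif20a (2.19), Cenpf (2.09), Cenpe (1.52) and Kif11 (1.31) were higher at 7 days on the log2 scale, as were the spindle assembly factor Tpx2 (1.09), the checkpoint kinase Bub1b (1.14) and Cdc20 (1.04), an activator of the anaphase-promoting complex. Kif11, a spindle motor, measured 4, 12 and 16 in sham and 14, 18 and 8 after tMCAO at 24 h, and 8, 11 and 18 against 26, 39 and 28 at 7 days (SE 0.43, adjusted p = 0.0384). Its call was lost when sham replicates 1 or 2 or any tMCAO library were left out, with adjusted p-values of 0.0665 to 0.159, and with only the compared groups in the fit (0.0593). Ube2c, the ubiquitin-conjugating enzyme of the anaphase-promoting complex, had 7, 17 and 26 in sham and 51, 49 and 36 after tMCAO at 7 days, without overlap and just short of the threshold (1.54, SE 0.53, adjusted p = 0.0529), which it passed without sham replicate 3 (0.0318), with the replicate block (0.047) and with median centring (0.0459). Bub1, below the minimum, measured 0, 3 and 3 in sham and 13, 18 and 6 after tMCAO at 7 days.

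Of the 19 tested mitotic genes, 7 were not called at 7 days, Ube2c among them. Cenpa, the histone of the centromere, had the lowest change of this group at both time points, with 68, 90 and 102 in sham and 61, 75 and 63 after tMCAO at 24 h and 100, 91 and 158 against 133, 101 and 117 at 7 days (0.04, SE 0.22, adjusted p = 0.927). Mad2l1, Kif23, Nusap1, Prc1 and Ttk were likewise not called at either time point, with log2 fold changes of 0.05, 0.55, 0.73, 1.02 and 1.64 at 7 days. All tMCAO libraries lay above sham for Nusap1 and Prc1 at 7 days, so a missed threshold does not show that these genes did not differ.

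**Figure D3:**
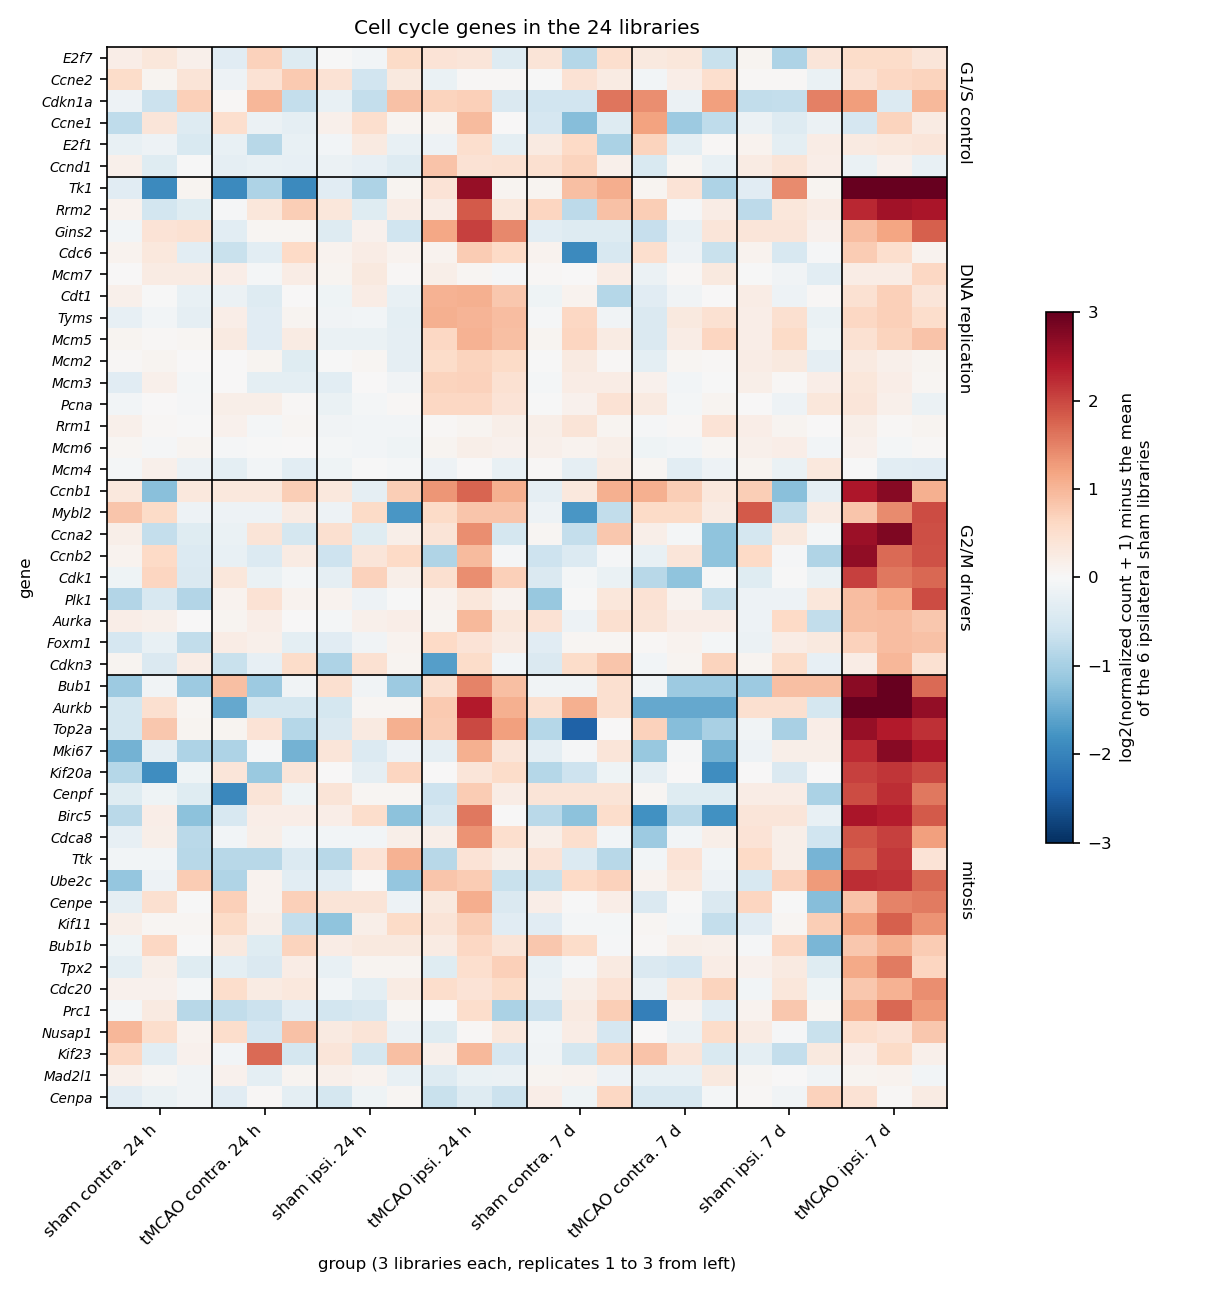
Each of the 49 genes (rows, by phase) in the 24 libraries (columns, 3 per group), as log2(normalized count + 1) minus the mean of the 6 ipsilateral sham libraries. Red is higher and blue lower. In the ipsilateral hemisphere after tMCAO, 7 of 14 genes of DNA replication were called higher at 24 h, and 6 of 7 tested G2/M drivers and 12 of 19 tested mitotic genes at 7 days, while replicate 2 at 24 h shows more G2/M and mitotic genes in red than replicates 1 and 3.

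The 24 h libraries after tMCAO were not alike. In the ipsilateral hemisphere, replicate 2 was the highest of the 3 for 35 of the 49 genes, against 6 and 6 for the others, with ties in 2 genes. Among the other groups the highest such count was 27, for sham contralateral replicate 3 at 7 days. The share over all genes was not computed. Its summed level of G2/M drivers was 228 normalized counts beside 143 and 145 in replicates 1 and 3, and that of mitotic genes was 887 beside 602 and 644. Without replicate 2, 8 genes were higher at 24 h instead of 9, and Aurkb was no longer called.

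Summed over each phase, the genes of DNA replication and of G2/M stood above ipsilateral sham in every library at 24 h, and those of G2/M and mitosis in every library at 7 days. The genes of DNA replication came to 4366 to 4694 normalized counts in sham and 5735 to 6292 after tMCAO in the ipsilateral hemisphere at 24 h, and to 4948 to 5195 against 5067 to 5635 at 7 days. G2/M drivers came to 102 to 134 in sham against 143 to 228 at 24 h and to 110 to 135 against 320 to 358 at 7 days. Mitotic genes came to 613 to 721 against 602 to 887 at 24 h and to 628 to 647 against 1164 to 1346 at 7 days. In the 18 libraries outside the ipsilateral hemisphere of tMCAO mice, the ranges were 4366 to 5488 for DNA replication, 88 to 143 for G2/M and 585 to 765 for mitosis. These sums are dominated by the most abundant genes and are given without a test.

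**Figure D4:**
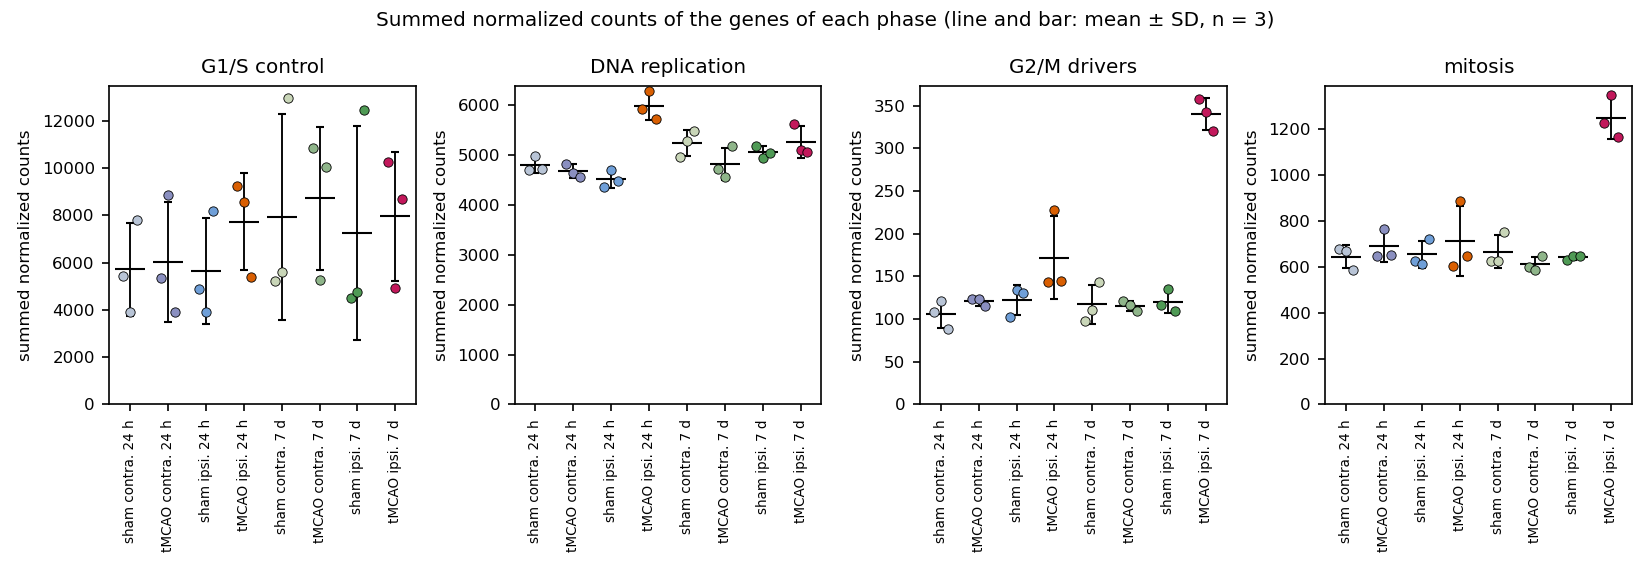
Summed normalized counts of the genes of each phase in each library by group, with points for libraries and lines with bars for mean ± SD (n = 3). DNA replication is highest in the ipsilateral group 24 h after tMCAO (5735 to 6292). G2/M (320 to 358) and mitosis (1164 to 1346) are highest in the ipsilateral group 7 days after tMCAO. G1/S control, which Cdkn1a dominates, overlaps between the groups.

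Direct comparison of the ipsilateral hemispheres after tMCAO between 7 days and 24 h gave 13 higher and 1 lower of the 46 genes, where 3.72% of all tested genes were higher and 8.44% lower. Higher at 7 days were 8 mitotic genes (Mki67, Birc5, Cenpf, Kif20a, Ube2c, Aurkb, Prc1 and Cenpa), 3 G2/M drivers (Ccnb2, Ccna2 and Plk1) and Tk1 and Rrm2, with log2 changes of 0.81 for Cenpa to 2.24 for Tk1. Tk1 and Aurkb passed the minimum only through these 7-day libraries. Their calls, which the count of 13 includes, and the place of Tk1 are therefore no more than a description. Ccnd1 was lower at 7 days by -0.68 (SE 0.16, adjusted p = 0.00522). The count of 13 fell to 2 with a minimum mean of 20, to 3 without tMCAO replicate 1 at 24 h and to 8 without replicate 3, and Ccnd1 was no longer called without replicate 1.

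The stroke effects at the 2 time points were compared by an interaction, the change from sham at 7 days minus that at 24 h. Of the 46 genes, 4 had a higher effect at 7 days, where 2.43% of all tested genes did, and 2 had a lower effect, where 5.68% did. The 4 were Ccnb2 (2.31, SE 0.71, adjusted p = 0.0433), Ccna2 (2.22, SE 0.68, adjusted p = 0.0432), Cenpf (2.13, SE 0.66, adjusted p = 0.0464) and Mki67 (1.96, SE 0.60, adjusted p = 0.0417), all on the log2 scale. Lower were Ccnd1 (-1.22, SE 0.22, adjusted p = 0.00178) and Mcm3 (-0.68, SE 0.18, adjusted p = 0.0243). For the other genes, a call at one time point and none at the other was not shown to be a difference between the time points. The 4 higher effects lay close to the threshold, and leaving out single libraries gave 0 to 5 and a minimum mean of 20 gave 0. Ccna2 lost its call in 8 of the 12 fits that left out a library (adjusted p = 0.0684 to 0.11) and Mki67 in 9 (0.0589 to 0.118).

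The tMCAO ipsilateral hemisphere was also set against the contralateral hemisphere, without pairing of the libraries. At 24 h, 10 of the 46 genes were higher and 0 lower, where 8.52% of all tested genes were higher and 5.14% lower. They were the genes higher against sham other than Pcna, with Tk1 and Mki67 in addition. At 7 days, 22 were higher and 0 lower, where 3.03% were higher and 9.98% lower, and with a minimum mean of 20 the count was 8. The tested genes included Tk1, Aurkb and Ttk, which passed the minimum only through these 7-day ipsilateral libraries. They are therefore not a neutral selection for this comparison. Mki67 measured 62, 87 and 72 ipsilaterally and 5, 12 and 4 contralaterally (log2 fold change 3.34, SE 0.42, adjusted p = 1.18e-05), and Cdk1 94, 68 and 75 against 12, 9 and 22 (2.46, SE 0.34, adjusted p = 2.51e-05). Aurkb was at 0 in all 3 contralateral libraries and at 75 ipsilaterally in all, which is at least 25-fold higher when 3 counts over the group are taken as the limit that a count of 0 allows. For the same reason this bound is no more than a description. These comparisons share the ipsilateral tMCAO libraries with those against sham.

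Between control groups, 0 of the 46 genes were called in each of 5 comparisons. In sham mice, limma without pairing of the libraries called 0% of all genes between the hemispheres at either time point, and 1 of the 46 genes had an unadjusted p under 0.05 at 24 h (2.3% of all genes) and 1 at 7 days (2.25%). In the contralateral hemisphere of tMCAO against sham mice, 0% of all genes were called at 24 h and 0.0313% at 7 days, and 2 and 5 of the 46 had an unadjusted p under 0.05 (2.53% and 10.3% of all genes). In the sham ipsilateral libraries at 7 days against 24 h, 0.476% of all genes were called, and 4 of the 46 had an unadjusted p under 0.05 (14.1% of all genes). The largest contralateral difference was that of Aurkb at 7 days, with 3, 5 and 3 in sham and 0, 0 and 0 after tMCAO (adjusted p = 0.107).

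Other genes of the same pathways were followed in lists apart from the genes above, to be read against the 10% of all tested genes that were higher and 8.23% lower at 24 h and the 3.27% higher and 9.95% lower at 7 days. Of 31 other genes of DNA replication, 9 were higher at 24 h and 5 at 7 days, with 0 lower. Uhrf1, which maintains DNA methylation at the fork, rose most at 24 h, from 43, 26 and 31 in sham to 108, 193 and 119 (log2 fold change 2.02, SE 0.35, adjusted p = 0.000296). Pole, the catalytic subunit of polymerase epsilon, rose most at 7 days, from 10, 16 and 6 to 38, 32 and 34 (1.70, SE 0.41, adjusted p = 0.00623). Among 39 other mitotic genes tested, the 24 h comparison called 7 higher and 1 lower, and the 7-day comparison 11 higher. Cenpm and Iqgap3 of these passed the minimum only through the 7-day tMCAO ipsilateral libraries (means of 4.57 and 4.67 over the 21 others), and without them 7 of 37 were higher at 24 h and 10 at 7 days. The largest increase at both times was that of Ckap2, a spindle protein, with 5, 5 and 3 against 30, 23 and 16 at 24 h and 3, 1 and 5 against 23, 26 and 21 at 7 days. Outside the ipsilateral tMCAO libraries Ckap2 measured 1 to 5, so it passed the minimum only through the groups in which it was high. Its place is therefore no more than a description. Anln, which encodes anillin of the cleavage furrow, was the lower gene (95, 64 and 86 against 20, 59 and 40 at 24 h).

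A list of 23 other genes of G1 held cyclins, kinases, E2F factors, pocket proteins, subunits of the MuvB complex, Cdc25a, Cdc25b, Skp2 and Myc, and against the same shares of all genes (10% higher and 8.23% lower at 24 h) its counts were close: 3 rose (Ccnd3, Cdk4 and E2f2) and 1 fell (Tfdp2) by 24 h, and 0 were called at 7 days. Myc, a growth-promoting transcription factor, had the highest value of the list at 24 h without passing the threshold, with 163, 210 and 278 against 1087, 1152 and 721 (2.18, adjusted p = 0.0617). E2f2, an activating E2F factor, measured 5, 19 and 13 in sham and 47, 32 and 33 after tMCAO at 24 h (1.67, SE 0.46, adjusted p = 0.0106), and Cdk4, the partner of cyclin D, 1363, 1607 and 1267 against 2344, 2281 and 2165 (0.69, SE 0.11, adjusted p = 0.000116). Tfdp2, a binding partner of E2F factors, fell from 983, 962 and 877 to 499, 519 and 630 (-0.78, SE 0.15, adjusted p = 0.00056). Of 5 other CDK inhibitors, Cdkn1b (p27) and Cdkn1c (p57) were lower at 24 h and 0 were called at 7 days. Cdkn1c had the larger change, from 1482, 1388 and 1598 to 889, 730 and 1206 (-0.69, SE 0.21, adjusted p = 0.0207). Cdkn1b fell from 1580, 1447 and 1562 to 927, 938 and 1053 (-0.65, SE 0.13, adjusted p = 0.000703), without overlap, and was at 1185 to 1279 at 7 days beside 1164 to 1194 in sham. From 20 further targets of p53, the 24 h comparison called 6 higher and 1 lower, and the 7-day comparison 0. Bax, which promotes apoptosis, measured 439, 553 and 481 against 1171, 1070 and 924 at 24 h, and Eda2r, a receptor of the TNF receptor family, had the largest increase, from 5, 9 and 6 to 31, 18 and 19 (1.62, SE 0.46, adjusted p = 0.012). Polk, a translesion DNA polymerase, was the lower one, from 2737, 1914 and 1992 to 1053, 1163 and 1295 (-0.91, SE 0.15, adjusted p = 0.000263). Among genes that the KEGG annotation of the table places in the cell cycle and that are not described above, 13 of 93 were called at 24 h, 9 of them up and 4 down, and 3 were called at 7 days, all up, which are shares near or under those of all genes. Of 28 such genes in the KEGG term for DNA replication, 9 were up at 24 h and 2 at 7 days.

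Markers of other cells were followed in the same comparisons. Over all genes, 10% were called up and 8.23% down at 24 h, and 3.27% up and 9.95% down at 7 days. For calls at 24 h and lower calls at 7 days, 1 of 10 markers is near the share of all genes. For higher calls at 7 days, 1 of 10 is above that share, but it is a single marker. Of 10 markers of neutrophils and monocytes, 9 were higher at 24 h and 1 at 7 days, and their summed level was 28599 to 39447 normalized counts 24 h after tMCAO beside 4935 to 9614 in sham. Of 10 markers of microglia and macrophages, 3 were higher at 24 h (Ptprc, Aif1 and Cd68) and 1 at 7 days (Ptprc). Of 6 tested markers of T and B cells, 2 were higher at 24 h and 1, Cd4, was lower at 7 days. Cd4 measured 71, 65 and 62 in sham and 24, 52 and 36 after tMCAO at 7 days, while Cd79a measured 13, 22 and 23 against 43, 37 and 27. All 10 markers of T and B cells together summed to 122 to 175 in sham and 131 to 205 after tMCAO at 7 days. At 7 days, the neutrophil and monocyte markers summed to 41071, 20998 and 7764 in tMCAO replicates 1 to 3 and to 1052 to 18453 in sham, while the mitotic genes summed to 1226, 1346 and 1164 in the same tMCAO libraries. The marker sum is mainly Lcn2, which neutrophils and reactive glia express, with 35743, 17860 and 6751 after tMCAO and 6448, 573 and 16388 in sham at 7 days, while Csf3r, a receptor of neutrophils, measured 292, 261 and 130 against 48, 52 and 122. Markers of the other lists were lower or not called: 5 of 10 neuronal markers were lower at 24 h and 9 at 7 days, 3 and 7 of 10 of oligodendrocyte precursors, 6 and 4 of 10 of astrocytes, 2 and 1 of 10 of pericytes, 2 and 0 of 10 of endothelial cells, 2 and 2 of 10 of oligodendrocytes, 1 and 2 of 10 of fibroblasts, 0 and 5 of 10 of choroid plexus, and 0 and 4 of 8 tested of neural progenitors, with 0 of 5 erythroid genes called. Gfap, an astrocyte marker that was not called, lay above sham without overlap at 7 days. It measured 1075, 1008 and 3327 in sham and 3453, 3934 and 5327 after tMCAO. None of the markers of these lists was at 0 in all libraries of a group. In which cells the genes of the cycle were transcribed, and the part of these markers in the differences, was not tested.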

How the data were processed

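RNA of microvessels was sequenced from 24 libraries in 8 groups of 3, grouped by the labels. Per the study's methods, the authors removed adapters, used STAR for alignment to mm10, left out reads that matched several genes, divided the counts by DESeq2 size factors and deposited the rounded result, which is treated as a score and not as whole reads. The submitters' processing notes list STAR 2.5.2b, featureCounts 1.5.1 and DESeq2 1.6.2. The reads behind a library were estimated from the regular gaps between low values, with a median of 16899667. The annotation release is not given in the sources used here.

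The log2 values with 1 added were fitted with limma 3.58.1 (R 4.3.3) with the trend option and the 8 groups together. The unit does not allow the study's count model, while the limits follow its methods. Tests are two-sided. The fit was tested on simulated data. Values per kilobase use the merged exons of GENCODE M21, found for 99.9% of the genes. Promoters are those of RefSeq on GRCm38.p6, which has the coordinates of mm10, and a gene was counted as holding a motif when any listed start had it. For 34 of 43 listed starts, the first letters of a GENCODE transcript of the gene matched within the sequence around the start. The exact position of the start was not checked. Figures were drawn with matplotlib 3.10.9. The genes, the lists and the tests were chosen with earlier results of these data known. Values in each library are given for anchor genes set for each phase and for the highest and lowest change in each phase at each time point, and for the highest and lowest called gene of each other list. Cdk4, Cdkn1b, Bax, Bub1, Myc, Lcn2, Csf3r, Cd79a, Gfap and the genes named to spell out small counts were picked with their values in view.

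Same-numbered hemispheres of sham mice deviated together, with correlations of 0.145 to 0.41 at 24 h and 0.325 to 0.467 at 7 days. They were taken as pairs only in the replicate block, which was an alternative setting. The main fits, those between the hemispheres included, did not use the pairing. Alternatives were a pseudocount of 0.5, no minimum or a mean above 20, median centring, a fit to the compared groups alone, calls without a fold limit, the replicate block and each library left out.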

Additional observations from a re-analysis of the deposited data

Results flagged for a closer look

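The stroke effect differed between the time points in 6 genes by the test of the difference itself, with the 4 higher effects close to the threshold. Leaving out 1 library gave 0 to 5 higher and 1 to 3 lower effects, and a minimum mean of 20 normalized counts gave 0 higher. Against sham, it was larger at 7 days than at 24 h for Ccnb2 (by 2.31 on the log2 scale), Ccna2 (2.22), Cenpf (2.13) and Mki67 (1.96), all genes of G2/M and mitosis, in which sham and tMCAO libraries overlapped at 24 h and were apart at 7 days. It was smaller for Ccnd1 (-1.22), whose libraries after tMCAO lay above sham at 24 h and below sham at 7 days, and for Mcm3 (-0.68), which measured 410, 514 and 470 in sham and 804, 821 and 694 after tMCAO at 24 h and 576, 521 and 584 against 644, 580 and 530 at 7 days. The sham libraries of Ccnd1 also lay apart by time, with 1495 to 1721 normalized counts at 24 h and 2227 to 2541 at 7 days, a difference that did not pass the limits.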

How the results depend on the processing

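Of 28 named genes followed under these settings, none changed its direction where it was called. The numbers of genes called higher at 24 h (9 of 46) and in the hemisphere comparison at 24 h (10) stayed within 1.5-fold under all settings. With a minimum mean of 20 normalized counts, which left 28 genes to test, the count fell from 21 to 8 at 7 days, from 22 to 8 between the hemispheres at 7 days, from 13 to 2 for 7 days against 24 h and from 4 to 0 for higher effects in the interaction. That minimum left out 13 of the 21 genes called at 7 days, and 20 of the 21 were under 50 normalized counts in the ipsilateral sham libraries. With only the compared groups in the fit, 13 were higher at 7 days. Median centring, which shifted the median of all genes for 7 days against 24 h from -0.04 to 0.07, took the lower genes of that comparison from 1 to 0 and of the interaction from 2 to 1. It changed the calls over all genes at 24 h from 1603 higher and 1316 lower to 1331 and 1707, and for 7 days against 24 h from 594 and 1349 to 939 and 1033. Without a limit on the fold, 4 genes were lower at 7 days than at 24 h.

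With each library left out in turn, 7 to 10 genes were higher at 24 h and 16 to 19 at 7 days, with 0 lower at both. For 7 days against 24 h, 3 to 16 were higher and 0 to 1 lower. Between the hemispheres 8 to 10 were higher at 24 h and 20 to 23 at 7 days. In the interaction 0 to 5 were higher and 1 to 3 lower. The 4 higher effects became 0 without sham replicate 3 at either time point, tMCAO replicate 1 at 24 h or tMCAO replicate 3 at 24 h, and 1 or 2 without any other library except tMCAO replicate 2 at 24 h, which gave 5. The 2 lower effects became 1 without sham replicate 1 at either time point, tMCAO replicates 1 or 2 at 24 h or tMCAO replicate 3 at 7 days. In the control comparisons 0 were called each time. The cause was not tested.

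With the replicate block, 0 of the 46 genes were called between the sham hemispheres as before (over all genes 1 at 24 h and 0 at 7 days). Between the hemispheres after tMCAO, paired by number, 12 and 22 were higher. In the comparisons between surgeries or times the block was the replicate number alone, which pairs no mice. It gave 9 higher genes at 24 h, 22 at 7 days, 14 for 7 days against 24 h and 4 in the interaction with 3 lower. Numbers did not pair tMCAO with sham libraries (correlations of -0.252 to 0.15). For the hemispheres after tMCAO the correlations were 0.059 to 0.36, with means of 0.251 at 24 h and 0.144 at 7 days. In sham mice the means were 0.293 and 0.411. The pairing of hemispheres rests on the numbers in the labels. Depth limits what can be seen in genes under about 5 normalized counts. The chosen minimum kept Bub1, Ccnb1 and Mybl2 out of the main fits, while the fit with no minimum held all 49 genes.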

Other observations

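Kif23, a motor of cytokinesis, was highest in a contralateral library. It measured 79, 276 and 58 normalized counts in the contralateral hemisphere 24 h after tMCAO, and 94, 165 and 59 in the ipsilateral hemisphere of the same numbers, so replicate 2 was the highest on both sides. In sham mice at 24 h, Kif23 measured 108, 58 and 157 ipsilaterally and 130, 67 and 92 contralaterally. Cdkn1a was likewise highest in replicate 2 on both sides 24 h after tMCAO, at 5815 and 7042.

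The p53 target Trp53inp1 spread over the pools in a like manner to Cdkn1a in the 7-day groups. It measured 670, 841 and 1599 in sham ipsilateral and 787, 860 and 1906 in sham contralateral libraries, and 2359, 1070 and 2517 against 2860, 1097 and 3502 after tMCAO. The p53 target Ccng1 did not show such a spread, with 860 to 1046 in the ipsilateral 7-day libraries. These genes were chosen after their values were seen, and the difference between pools was not tested.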
